A study of Homo sapiens with 2 samples.

Results

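The kinesin genes of HCT116, an established human colon carcinoma cell line, were read in 2 sequencing libraries, 1 from cells that received KAT7 siRNA (siKAT7) and 1 from cells that received an siRNA with no specific target (siControl). Kinesins were taken by name as every gene called KIF followed by a number with or without a letter A to C, or KIFC1 to KIFC3. The rule took 42 of the 60623 named genes, of which 12 were set aside as mitotic kinesins and 30 formed the other kinesins. Cells of both groups were wild type by label and received a lipid transfection reagent, total RNA was sequenced, and each group had 1 library. No difference below has a replicate, so no test of the treatment was possible and no p-value of this comparison was computed.

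Kinesins are motor proteins that hydrolyse ATP to move along microtubules or to take microtubule ends apart. Most walk towards the plus ends and carry vesicles, organelles or ciliary components, whereas the kinesin-14 motors walk towards the minus ends. A subset builds the mitotic spindle, moves chromosomes and organises the midzone where the cell divides, and many genes of that subset are transcribed mainly in G2 and mitosis. Their promoters often hold a cell cycle genes homology region (CHR), a hexamer bound by the MuvB core of the DREAM and B-MYB complexes, near CCAAT boxes bound by the factor NF-Y.

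Expected counts, which are estimated reads per gene, reached a total of 23450331 for siControl and 23533186 for siKAT7 over named genes. Levels are given as CPM, the counts relative to the library total after TMM scaling, and the log2 ratio is siKAT7 over siControl with an exact 95% interval that covers counting error only. KAT7, the targeted histone acetyltransferase, had 442.94 counts in siControl and 287.22 in siKAT7, which left 69.6% of its siControl level (log2 ratio -0.52, interval -0.74 to -0.31). That is a 1.44-fold lower level, under the 1.5-fold limit set for calls below, and the authors' deposited table does not mark KAT7 significant. Of 9 colon epithelial markers 7 reached a mean of 1 CPM, whereas CDX1 had 0 counts in both libraries and VIL1 had 15.27 and 11.77. Of 16 markers of other cell types TUBB3 and COL1A1 alone reached that mean. TUBB3, a tubulin used as a nerve marker, had 6315.1 and 7406.97 counts, a mean of 293 CPM, and COL1A1, a fibroblast collagen, 760 and 706. The other nerve markers had 20 and 20 (SNAP25), 18 and 17 (RBFOX3) and 0 counts (STMN2), and the highest of the remaining markers had 22 counts. PTPRC and PECAM1, which mark blood and endothelial cells, had 0 counts in both libraries.

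The promoters of the mitotic kinesins are shown first because most of them hold both the hexamer and CCAAT. Windows from 250 bases before to 50 after the start of the gene came from RefSeq on GRCh38.p14 and were matched by symbol for 34 of the 42 kinesins, all 12 mitotic ones among them. TTTGAA, searched on both strands, stood in the windows of 9 of the 12 mitotic kinesins and of 2 of the 22 other kinesins with a window. It stood in 15.2% of all 35116 windows and in 15.8% of 15843 protein-coding genes. CCAAT, also searched on both strands, stood in 10 of the 12 mitotic and 8 of the 22 other kinesins, against 42.1% of protein-coding genes, and a CCAAT and a hexamer can share at most 1 base at their ends. Windows with both motifs were found for 8 mitotic and 2 other kinesins and for 6.59% of protein-coding genes. The variant TTCGAA stood in the windows of 1 mitotic kinesin, KIF22, of 1 other kinesin, KIF24, and in 2.11% of protein-coding genes. In mitotic kinesins where a CCAAT lay upstream of a hexamer of either form, the closest pair was 4 to 117 bases apart, with a median of 29 over 9 genes. The following stretches run 5′ to 3′ on the strand of the gene from 90 bases before the start, with both motifs in capitals. They end at the base before the start, or at the end of the hexamer where it lay just after the start.
KIF15 (chr3:44761704-44761793, forward strand): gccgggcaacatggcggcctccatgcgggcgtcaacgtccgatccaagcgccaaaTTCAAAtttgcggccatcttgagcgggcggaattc
KIF23 (chr15:69414259-69414348, forward strand): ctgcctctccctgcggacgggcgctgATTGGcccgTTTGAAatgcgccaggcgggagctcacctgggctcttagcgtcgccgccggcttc
KIF11 (chr10:92593040-92593129, forward strand): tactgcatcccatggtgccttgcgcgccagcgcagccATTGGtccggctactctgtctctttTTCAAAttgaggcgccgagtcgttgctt
KIF4A (chrX:70290014-70290103, forward strand): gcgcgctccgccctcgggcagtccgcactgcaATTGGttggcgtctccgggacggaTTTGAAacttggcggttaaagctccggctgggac
KIF18A (chr11:28108157-28108246, reverse strand): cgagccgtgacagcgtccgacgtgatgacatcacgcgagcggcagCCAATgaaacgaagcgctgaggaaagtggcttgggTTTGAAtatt
KIF22 (chr16:29790661-29790750, forward strand): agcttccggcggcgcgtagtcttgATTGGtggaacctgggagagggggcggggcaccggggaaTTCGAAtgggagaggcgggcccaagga
KIFC1 (chr6:33391733-33391832, forward strand): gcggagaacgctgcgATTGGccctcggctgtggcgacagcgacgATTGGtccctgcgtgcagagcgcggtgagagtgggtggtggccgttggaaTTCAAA
KIF18B (chr17:44947766-44947863, reverse strand): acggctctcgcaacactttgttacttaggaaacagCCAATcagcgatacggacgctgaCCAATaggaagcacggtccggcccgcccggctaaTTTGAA
KIF14 (chr1:200620745-200620841, reverse strand): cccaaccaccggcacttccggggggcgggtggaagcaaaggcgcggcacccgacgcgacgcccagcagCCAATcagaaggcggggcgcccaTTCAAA
In KIF20B a pair of hexamers lay farther downstream, at bases 25 to 30 and 31 to 36. KIF2C held neither motif in its window, and KIF20A held CCAAT alone. A match is a description of these letters and was not tested as a binding site.

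**Figure D1:**
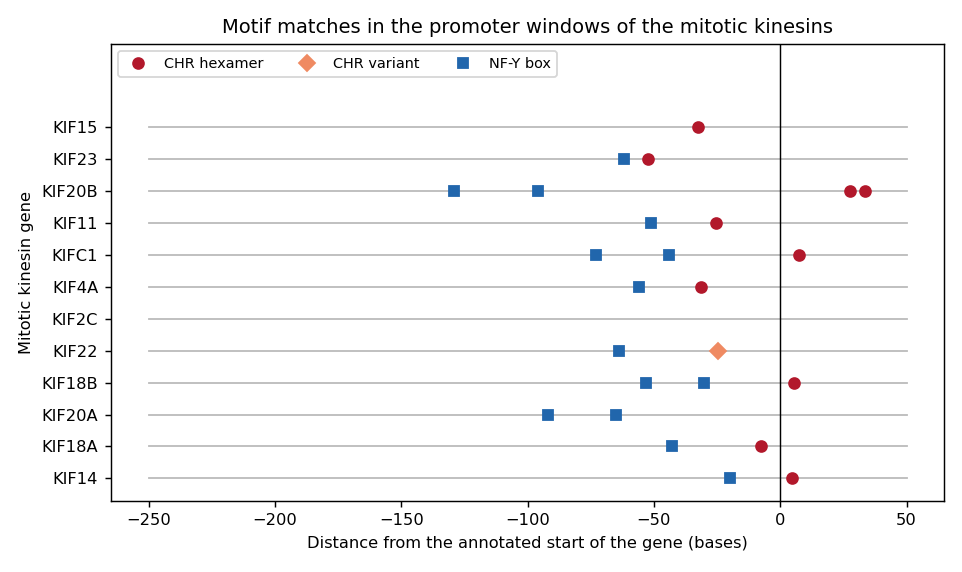
Motif matches in the promoter windows of the 12 mitotic kinesins, ordered from the lowest log2 ratio (top) to the highest. The horizontal axis is the distance in bases from the start annotated in RefSeq. Circles are the CHR hexamer, diamonds its variant and squares the NF-Y box, and for KIF22 the upstream of its windows is drawn. In 9 genes a hexamer of the first form is present, all between 55 bases before and 36 after the start.

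The mitotic kinesins were mostly lower in siKAT7, by small amounts. Of the 12, all of which were measured, 11 had a log2 ratio below 0, beside 50.7% of the 13217 genes that averaged 1 CPM or more. The median was -0.24 against -0.0047 over those 13217 genes. The count of 11 was the same under total-count scaling and with DESeq2 size factors. Both moved the ratios down, by medians of -0.11 and -0.0096, so neither could lift a member above 0. A gene was called higher or lower when it was at least 1.5-fold different with an interval that excluded 0, and 1 mitotic kinesin, KIF15, was called lower and 0 higher. The same call covered 3.90% of all genes in the lower direction and 3.91% in the higher. With the interval alone and no fold limit, 7 mitotic kinesins were lower and 0 higher, beside 22.0% and 23.0% of all genes. Intervals narrow as counts rise, and the 7 include KIF22, KIFC1, KIF18B and KIF2C, the most counted mitotic members. Those 2 shares were not split by expression, so they are not shares of genes of like depth. Under total-count scaling 358 genes were called higher and 842 lower, against 517 and 515 here, since that scaling moved all log2 ratios by a median of -0.11.

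KIF15, a kinesin-12 motor that helps to hold the spindle poles apart, had 56 counts in siControl and 21 in siKAT7. Its log2 ratio was -1.29 (interval -2.11 to -0.57), a 2.45-fold lower level. The gene lies on chromosome 3 at 44761717 to 44873376 of GRCh38 in the GENCODE annotation. Its promoter above has the hexamer 35 to 30 bases before the RefSeq start and no CCAAT. The printed stretch ends at 44761793, just before the RefSeq start, which thus lies downstream of the GENCODE start. By the GENCODE coordinates this hexamer lies inside the gene. The same holds for the hexamers printed above for KIF23, KIF18A and KIFC1 and for the printed variant of KIF22. KIF15 was among the weakly expressed genes, at 2.30 and 0.926 CPM, and it met the expression filter through its siControl level. Of the 2263 genes that averaged 1 to 3 CPM, 12.5% were called lower and 11.7% higher, and their central 95% of ratios, from -1.38 to 1.32, includes KIF15. In the authors' deposited table the log2 fold of KIF15 is -1.42 with an adjusted p of 0.00037, marked significant, a p that compares these 2 libraries and not the conditions.

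KIF11 (Eg5, kinesin-5), the bipolar motor that pushes the spindle poles apart and is the target of antimitotic inhibitors, had 186 and 141 counts. Its log2 ratio of -0.30 had an interval that reached above 0 (-0.62 to 0.03). The 2 spindle-pushing motors thus pointed the same way, with a call for KIF15 alone.

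The kinesin-6 motors of the midzone and cytokinesis did not all have the same ratio. KIF23 (MKLP1), which forms the centralspindlin complex with RACGAP1, had 250 and 165 counts and a log2 ratio of -0.50 (-0.79 to -0.21). KIF20B (MPP1) had 157 and 107 counts and a log2 ratio of -0.45 (-0.82 to -0.09). KIF20A (MKLP2), which brings the chromosomal passenger complex to the midzone, had 475 and 429 counts and a log2 ratio of -0.04 (-0.24 to 0.15). None of the 3 reached 1.5-fold, and KIF23 passed that limit under total-count scaling. KIF20A shares 132 exon bases with BRD8 and 68 with CDC23 on the opposite strand, and reads of such overlaps cannot be told apart if the library was not stranded.

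Of the 5 chromosome-arm motors and microtubule depolymerases, 0 were called, and 3 had intervals below 0. KIF22 (Kid), a chromokinesin that pushes chromosome arms from the poles, had 6452.71 and 5167 counts and a log2 ratio of -0.22 (-0.27 to -0.17). KIF4A, the other chromokinesin, which also sets the length of midzone microtubules with PRC1, had 193 and 152 counts and a ratio of -0.24 (-0.56 to 0.07), and it shares 77 exon bases on the opposite strand with the more counted PDZD11 (1024 and 958 counts). KIF2C (MCAK), a kinesin-13 that takes microtubule ends apart and corrects faulty attachments, had 1292 and 1023 counts and a ratio of -0.23 (-0.35 to -0.12). KIF18B, a kinesin-8 that works with KIF2C on astral microtubules, had 2185.59 and 1789 counts and a ratio of -0.19 (-0.28 to -0.10). KIF18A, the kinesin-8 that dampens chromosome movements at the metaphase plate, had 78 and 71 counts and a ratio of -0.03 (-0.52 to 0.45), and it shares 61 exon bases on the opposite strand with METTL15 (82 and 94 counts). At its depth a difference of the size seen for KIF2C was not detectable for KIF18A.

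KIFC1 (HSET), the kinesin-14 that crosslinks and focuses spindle poles, had 4354.76 and 3403 counts and a log2 ratio of -0.25 (-0.32 to -0.19). KIF14, a midbody kinesin that acts with citron kinase, was the 1 mitotic member above 0, with 67 and 78 counts and a ratio of 0.32 (-0.17 to 0.81). It shares the hexamer and CCAAT with members that were lower. Over the 9 mitotic kinesins with TTTGAA the ratios ran from -1.29 to 0.32 with a median of -0.25. Over KIF20A, KIF2C and KIF22, which lack it though KIF22 has the variant TTCGAA, they ran from -0.23 to -0.04 with a median of -0.22. The part of the hexamer in these ratios was not tested.

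The sum of the mitotic kinesins differed by less than 1.5-fold but by more than counting error. They summed to 15747 counts in siControl and 12546 in siKAT7, a log2 ratio of -0.23 (-0.26 to -0.19). The 4 most counted, KIF22, KIFC1, KIF18B and KIF2C, gave -0.23 (-0.26 to -0.19), and the other 8 together gave -0.23 (-0.34 to -0.11). The 2 sums thus had the same ratio. The other kinesins summed to 14708 and 13796 counts, a log2 ratio of 0.01 (-0.02 to 0.04), so that mitotic kinesins made up 51.7% of all kinesin counts in siControl and 47.6% in siKAT7.

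**Figure D2:**
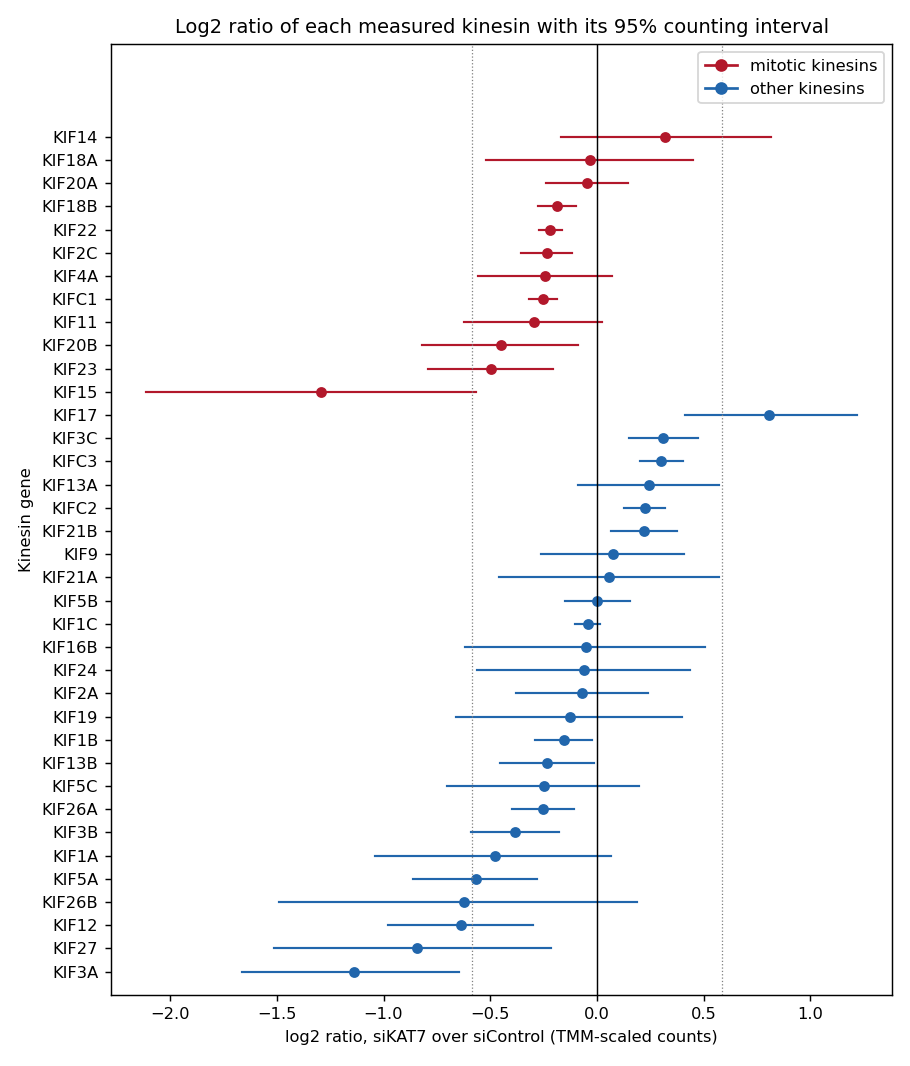
Log2 ratio (siKAT7 over siControl, horizontal axis) of the 37 measured kinesins, with points for the ratio, bars for the 95% counting interval and dotted lines at 1.5-fold. Of the 12 mitotic kinesins 11 lie left of 0, whereas the 25 other kinesins spread from KIF3A at -1.14 to KIF17 at 0.81.

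The other kinesins spread in both directions. Of the 30, 25 averaged 1 CPM or more, of which 16 had log2 ratios below 0 and 9 above, beside 50.7% of all genes below 0. The median of the 25 was -0.07. KIF3A, KIF27 and KIF12 were called lower and KIF17 higher, and 21 were not called, beside the 3.90% and 3.91% of all genes given above. Under total-count scaling KIF5A and KIF1A were also called lower, the median was -0.18, and KIF5B, KIF9 and KIF21A turned negative, as they did in the authors' deposited table.

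Kinesin-2 motors, which carry intraflagellar cargo in cilia and vesicles elsewhere, lay on both sides of 0, from -1.14 to 0.81. KIF3A, which pairs with KIF3B in the heterotrimeric motor, had 114 counts in siControl and 48 in siKAT7, more than 2-fold lower (log2 ratio -1.14, interval -1.66 to -0.65). KIF3B had 463 and 331 counts and a log2 ratio of -0.38 (-0.59 to -0.18), and the intervals of the 2 partners did not overlap. KIFAP3, the accessory subunit that links this pair to cargo, had 120 and 119 counts and a ratio of 0.09 (-0.29 to 0.47). In contrast, KIF3C, the alternative partner of KIF3A, had 588 and 680 counts and a log2 ratio of 0.31 (0.15 to 0.47). KIF17, a homodimeric kinesin-2 known from cilia and dendrites, had 85 and 139 counts, a 1.75-fold higher level (log2 ratio 0.81, interval 0.41 to 1.22). Over the family these opposite ratios cancelled, since all 4 genes summed to 1250 and 1198 counts, a log2 ratio of 0.04 (-0.07 to 0.16).

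KIF3A and KIF17 were the 2 kinesins that lay beyond the central 95% of genes of like expression, 5.41% of the 37 measured, near the 5.01% of all genes that lie there by the way the ranges are set. For the 3120 genes that averaged 3 to 10 CPM that range ran from -0.74 to 0.76, with 5.51% called lower and 4.62% higher. KIF3A, at a mean of 3.40 CPM, stood close to the lower edge of this group, and its ratio would lie inside the range of genes of 1 to 3 CPM. Of the 15 kinesins at 10 CPM or more 0 were called, beside 1.39% of genes there called higher and 0.766% lower. KIF3A lies on chromosome 5 at 132692628 to 132737638 and KIF17 on chromosome 1 at 20664014 to 20718017. The authors' deposited table puts KIF3A at a log2 fold of -1.25 with an adjusted p of 1.7e-06, marked significant, and KIF17 a log2 fold of 0.70 with an adjusted p of 0.0021, not marked. That table marks 2 of the 42 kinesins, KIF3A and KIF15, which are 5.41% of the 37 measured kinesins beside 1.48% of the 13217 genes kept. Its adjusted p is under 0.001 for 14 of the 37 measured kinesins and for 23.3% of all genes kept.

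**Figure D3:**
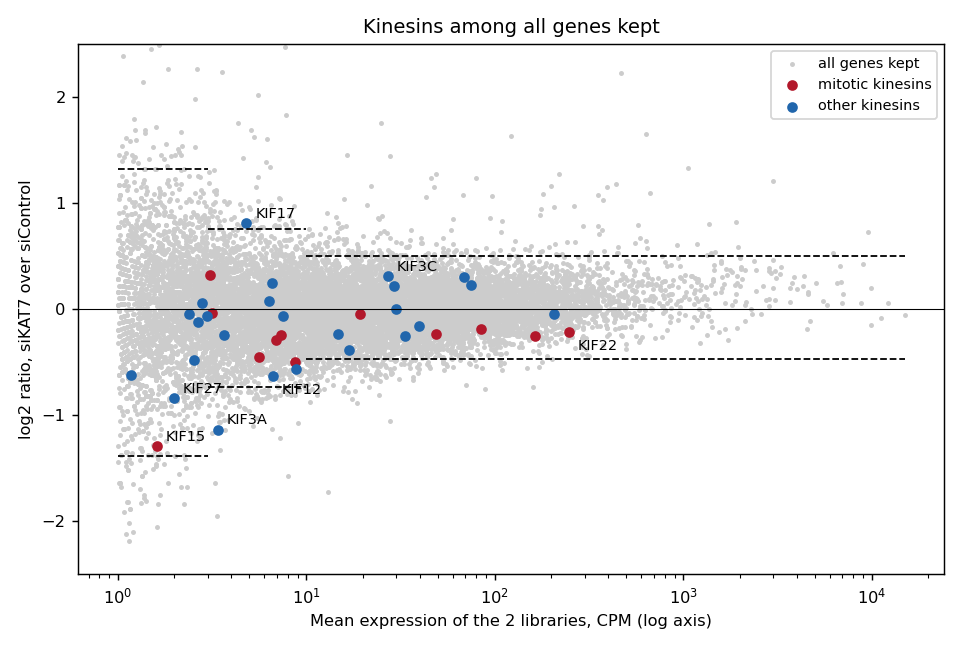
Log2 ratio (vertical axis) against mean expression in CPM (log axis) for the 13217 genes kept, with mitotic kinesins in red and other kinesins in blue. Dashed lines bound the central 95% of genes in 3 ranges of expression, 32 genes lie beyond the plotted limit of 2.5, and KIF3A and KIF17 are the kinesins outside the dashed lines.

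Among kinesin-1, the main motor of organelle and vesicle transport, the widely expressed KIF5B had 727 and 678 counts and a log2 ratio of 0.00 (-0.15 to 0.15). KIF5A, a form best known from neurons, had 258 and 162 counts and a ratio of -0.57 (-0.86 to -0.28), just under the 1.5-fold limit. KIF5C, a further neuronal form, had 97 and 76 counts and a ratio of -0.25 (-0.70 to 0.20). The light chains, which bind cargo for these motors, had ratios on both sides of 0, of -0.05 (-0.15 to 0.05) for KLC1 and -0.06 (-0.14 to 0.03) for KLC2. KLC3, with 2415.76 and 2587.41 counts, had a ratio of 0.20 (0.12 to 0.28), and KLC4 0.12 (-0.17 to 0.42).

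Kinesin-3 motors outside the mitotic set, which carry endosomes, lysosomes and synaptic vesicle precursors, had ratios from -0.48 to 0.24. KIF1C, the most counted of them, had 5118 and 4629 counts and a ratio of -0.04 (-0.10 to 0.01). KIF1B had 1012.1 and 846 counts and a ratio of -0.16 (-0.29 to -0.02), and KIF13B had 386.62 and 307.34 counts and a ratio of -0.23 (-0.45 to -0.01). KIF13A, an endosome motor, had 147 and 162 counts and KIF16B, an early endosome motor, 59 and 53, with ratios of 0.24 (-0.09 to 0.57) and -0.05 (-0.62 to 0.51). KIF1A, the neuronal synaptic vesicle motor, had 72 and 48 counts and a ratio of -0.48 (-1.04 to 0.06). Counting intervals left 0 outside for KIF1B and KIF13B alone, by narrow margins.

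The minus-end motors outside the spindle went the other way from KIFC1. KIFC3, which acts at the Golgi and at epithelial junctions, had 1503 and 1725.59 counts and a log2 ratio of 0.30 (0.20 to 0.40). KIFC2 had 1676.39 and 1823.99 counts and a ratio of 0.22 (0.13 to 0.32). KIFC2 shares 791 exon bases with FOXH1 on the opposite strand, which had 1.61 and 3.01 counts. Neither reached 1.5-fold, and both stayed above 0 under total-count scaling, at 0.19 for KIFC3 and 0.12 for KIFC2.

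Kinesins of cilia and of microtubule-end control were mixed. KIF27, a kinesin-4 related to the hedgehog regulator KIF7, was called lower, with 62 and 32 counts and a log2 ratio of -0.84 (-1.52 to -0.21), on chromosome 9 at 83836698 to 83921465. It lay inside the central range of genes of 1 to 3 CPM. KIF12, a kinesin-12, was called lower with 197 and 118 counts and a ratio of -0.63 (-0.98 to -0.30), on chromosome 9 at 114086126 to 114099291, and lay inside the range of genes of 3 to 10 CPM. KIF12 and KIF15, the kinesin-12 genes, lie in ranges of expression where 5.51% and 12.5% of genes were called lower, and together they summed to 253 and 139 counts, a ratio of -0.76 (-1.07 to -0.46).

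KIF21B, a kinesin-4 that restrains microtubule growth, had 657 and 714 counts and a log2 ratio of 0.22 (0.07 to 0.38). Its relative KIF21A had 67 and 65 counts and a ratio of 0.06 (-0.46 to 0.57). KIF26A, an atypical kinesin-11 known to lack motor activity, had 888 and 695 counts and a ratio of -0.25 (-0.40 to -0.11). KIF26B had 35 and 21 counts, 1.44 and 0.926 CPM, and a ratio of -0.62 (-1.49 to 0.19).

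The depolymerases outside the mitotic set had ratios near 0. KIF2A, a kinesin-13 of spindle poles and neurons, had 187 and 166 counts and a ratio of -0.07 (-0.38 to 0.24), and it shares 428 exon bases with IPO11 on the same strand. KIF24, a centriolar kinesin-13 that restrains cilium formation, had 74 and 66 counts and a ratio of -0.06 (-0.56 to 0.44). It shares 143 exon bases on the opposite strand with UBAP1, which had 1863 and 1874 counts. KIF19, which limits the length of cilia, had 68 and 58 counts and a ratio of -0.13 (-0.66 to 0.40). KIF9, a ciliary kinesin-9, had 151.2 and 148.18 counts and a ratio of 0.07 (-0.26 to 0.41). It shares 870 exon bases with KIF9-AS1 on the opposite strand, and the sum of the 2 gave 0.14 (-0.14 to 0.43). It also shares 178 with KLHL18 on that strand, which had 576.28 and 589.82 counts.

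The 5 other members fell below the filter. KIF2B and KIF25 had 0 counts in both libraries, which allows up to 0.123 CPM in siControl and 0.132 in siKAT7 by counting error. KIF6 had 0 counts and 1, and KIF4B, an intronless copy of KIF4A, had 2 and 0. KIF7, which controls hedgehog signalling at the ciliary tip, had 14 and 3 counts, a log2 ratio of -1.95 on an interval of -4.56 to -0.28.

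Compared per kilobase of the deposited gene length, kinesin levels differed over 3 orders of magnitude between genes. KIF22 was highest, at 125.5 CPM per kilobase in siControl and 107.8 in siKAT7, followed by KIFC1 at 74.8 and 62.8. KIF1C (26.6 and 25.8), KIFC2 (21.2 and 24.8) and KIFC3 (20.3 in siControl) came next, with KIF18B at 22.0 and 19.3 and KIF2C at 18.5 and 15.8. KIFC3 stood below KIF18B in siControl and above it in siKAT7, so these neighbours have no fixed order. KIF11, which makes the spindle bipolar, stood at 1.52 and 1.24, and KIF26B was the lowest measured, at 0.106 and 0.0681. Mitotic kinesins held 68.5% of the summed kinesin level in siControl and 64.3% in siKAT7.

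**Figure D4:**
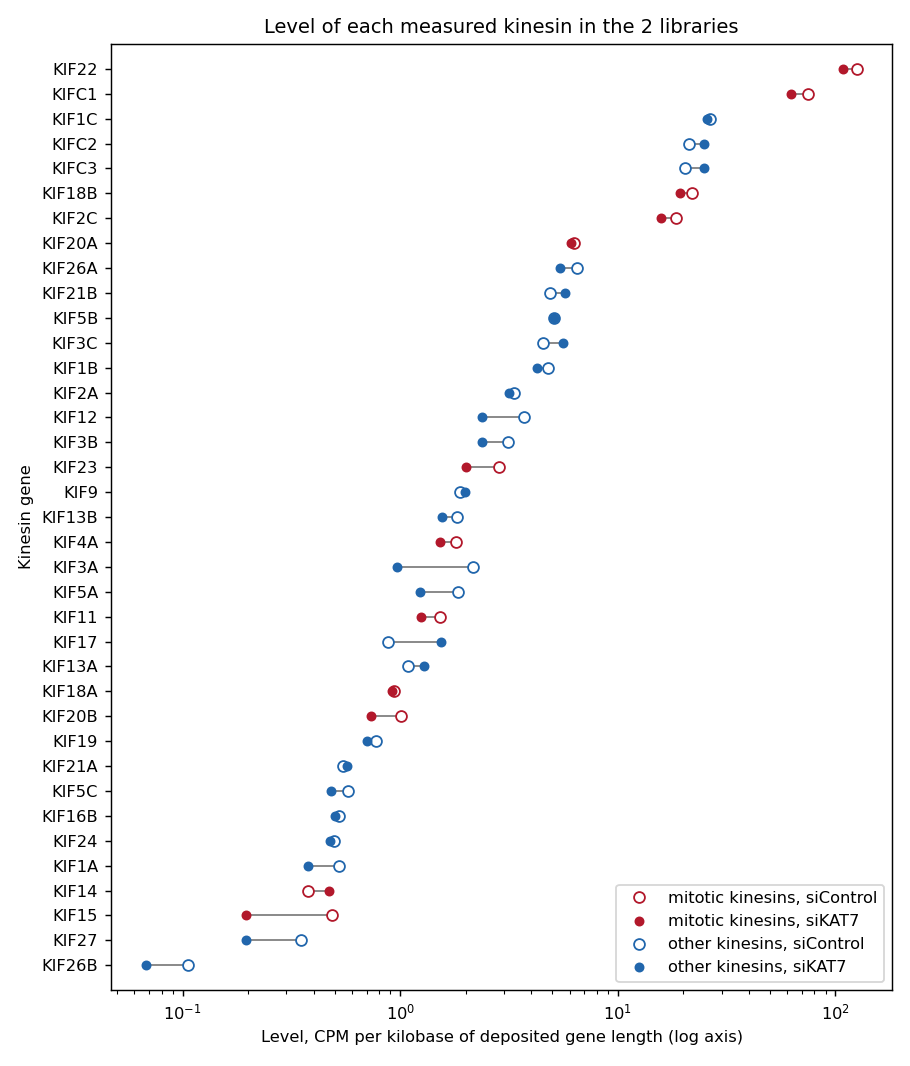
Level of the 37 measured kinesins in CPM per kilobase of deposited gene length (log axis), open circles for siControl and filled circles for siKAT7. KIF22 and KIFC1 stand above all others in both libraries, and the widest gaps between the circles are those of KIF15 and KIF3A.

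Genes that work with these motors were described from lists. Of 23 spindle partners of the mitotic kinesins, all measured, 19 had log2 ratios below 0, beside 50.7% of all genes. The calls were 2 lower and 0 higher, beside 3.90% and 3.91% of all genes. The median was -0.19, near that of the mitotic kinesins. CENPE, the kinesin-7 of the kinetochore, which the naming rule does not take, had 88 and 49 counts (log2 ratio -0.74, interval -1.28 to -0.22), in a range of expression where 12.5% of genes were called lower. HAUS1, a subunit of the augmin complex that branches spindle microtubules, had 121 and 73 counts (-0.62, interval -1.07 to -0.20), where 5.51% were. Of the binding partners named above, RACGAP1, the partner of KIF23, had 688 and 496 counts and a ratio of -0.37 (-0.54 to -0.20), and PRC1, the partner of KIF4A, had 390.35 and 436.09 counts and a ratio of 0.26 (0.06 to 0.46). CIT (citron kinase), the partner of KIF14, had 1021 and 805 counts and a ratio of -0.24 (-0.38 to -0.11), below 0 where KIF14 was above it. Of the passenger complex that KIF20A carries, AURKB, CDCA8, INCENP and BIRC5 had ratios of 0.16, -0.26, -0.23 and -0.07. These 7 partners were named after their values were seen.

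Light chains and cargo adaptors lay on both sides of 0. Of 23 genes, 12 had ratios below 0 and 11 above, beside 50.7% of all genes below 0. Of the 23, 0 were called in either direction, and the median was -0.04, or -0.15 under total-count scaling. The lowest was RHOT1 (Miro1), which couples mitochondria to motors, at -0.44 (-0.72 to -0.16) with 258.85 and 178 counts. Dynein and dynactin, the opposing minus-end motor, had 27 of 29 genes measured, 17 of them below 0, beside 50.7% of all genes. The median was -0.06, or -0.17 under total-count scaling. DYNC1I2, a dynein intermediate chain, and ACTR10, a dynactin subunit, were called lower, at -0.80 (-1.19 to -0.43) and -0.62 (-0.81 to -0.43), and 0 were called higher, against the same 3.90% and 3.91% of all genes. DYNC1I2 had 167 and 89 counts and ACTR10 607 and 367.

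Base composition of the transcripts moved with the ratio across all genes. Over 13136 genes the log2 ratio had a Spearman rho of 0.16 with GC content and -0.20 with length, and the median ratio was -0.06 in the fifth of genes lowest in GC and 0.07 in the highest. Over the 37 measured kinesins rho was 0.19 with GC content and -0.05 with length, and over the 12 mitotic ones 0.12 and -0.17, as a description across genes that share both libraries. Of the 18 measured kinesins lower in GC (34.2% to 48.4%), 14 were below 0 with a median ratio of -0.20, and of the 19 higher in GC (49.5% to 68.3%), 13 were below 0 with a median of -0.19. KIF15 and KIF3A, the lowest ratios, had 41.2% and 37.8% GC, and KIF17, the highest, 63.2%. The part of GC content and length in these ratios was not tested.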

How the data were processed

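The authors deposited expected counts per gene, estimated reads that need not be whole, and the gene length. Per the submitters' processing notes, RSEM 1.3.3 and the build GRCh38.p13 are listed. The sources used here do not give the aligner, annotation release or strand setting. The authors' deposited table also gives a fold (a ratio), its log2 and p-values, from a tool not given in the sources used here. The count table repeats both count columns with 0 differing cells, so each was used once. The 331 unnamed rows (1.11% of counts in siControl, 1.67% in siKAT7) were left out.

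Counts were rounded to whole numbers and scaled with TMM factors from edgeR 4.0.16 over all named genes. Log2 ratios had a prior count of 0.5, and exact Clopper-Pearson intervals came from the split of each gene's counts. No molecular identifiers are named in the labels, so intervals and zero-count limits (3 counts) cover counting error only. Genes that averaged 1 CPM or more were kept. Gene coordinates, exon overlaps and GC content of the longest transcript came from GENCODE 29. Promoter windows and motif distances used RefSeq starts, which differ from the GENCODE starts for KIF15 and KIF11, among others. Every measured kinesin was named, with, per partner list, called genes (at most 4) or the lowest and highest ratio among genes with 100 or more summed counts. Of these, 1 gene is not reported here. Members and lists were chosen with earlier results of these data known. The procedure was run on simulated counts with counting error alone, the error that the intervals assume. That run cannot show how calls fare under variation between libraries. Alternatives were total-count scaling, DESeq2 1.42.0 size factors, a prior count of 5, other filters and call rules, and the authors' folds.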

Additional observations from a re-analysis of the deposited data

How the results depend on the processing

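Under each scaling 11 of 12 mitotic kinesins were below 0, though the alternative scalings lower all ratios and could not lift a member above 0. The medians of the 5 gene groups were compared under the 6 alternatives that give a median (the call rules give none). They moved by less than the median counting error of single members, which is not the error of a group median. Such a limit does not show that these medians held. Under total-count scaling they were -0.35 for mitotic kinesins in place of -0.24, -0.18 for other kinesins in place of -0.07, -0.30 for spindle partners in place of -0.19, -0.15 for adaptors in place of -0.04 and -0.17 for dynein and dynactin in place of -0.06. Counts of calls moved more. Total-count scaling called 2 mitotic kinesins lower in place of 1 and 5 other kinesins lower in place of 3, with 842 of all genes lower in place of 515. With the authors' deposited log2 folds held to the 1.5-fold limit, 2 mitotic kinesins and 781 genes were lower. That rule kept the TMM-scaled counting intervals used here, so it is not the authors' own marking. With a mean of at least 10 CPM, 0 mitotic kinesins, 0 other kinesins in either direction, 0 spindle partners and 1 dynein or dynactin gene were called lower, with 109 genes higher and 60 lower, since fewer genes are tested. Without the filter 821 genes were higher in place of 517 and 753 lower in place of 515, with 4 other kinesins lower. At 2-fold, 0 other kinesins were higher and 1 lower, 0 spindle partners and 0 dynein or dynactin genes were lower, and of all genes 178 were higher and 144 lower. With no fold limit, 7 mitotic kinesins were lower, 5 other kinesins higher and 8 lower, 2 spindle partners higher and 12 lower, 3 adaptors higher and 3 lower, 4 dynein or dynactin genes higher and 9 lower, and of all genes 3034 higher and 2914 lower. KIF17 was the 1 kinesin called higher under all 3 scalings. No paired analysis was possible because each group had 1 library. Depth limits the least counted measured kinesins, among them KIF15, KIF16B, KIF26B and KIF27, at 21 to 62 counts.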
